A study of Homo sapiens with 9 samples.

Results

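Small nucleolar RNAs and Cajal body RNAs were followed in ES-2 cells upon depletion of IGF2BP1 or SRF. Of 992 genes annotated as snoRNA or scaRNA among the 58174 genes of the deposited tables, 59 reached a mean of at least 10 FPKM (fragments per kilobase of gene and per 1000000 reads) over all 9 libraries and are described here. They comprise 29 C/D box RNAs (symbols SNORD), 22 H/ACA box RNAs (SNORA), 5 small Cajal body RNAs (SCARNA) and 3 RNAs with other symbols (U3.37, snoU2_19.3 and snoU2.30.1). Of the remaining rows, 244 had at least 1 read in some library and 689 were listed at 0. The RNAs were chosen by their mean FPKM over all conditions, so their levels are given as a description. Of the 59, 50 reached 10 FPKM as a mean in every group, and the rest only in some groups.

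ES-2 is an established line of human ovarian cancer cells. All cells were transfected with siRNA and harvested at 72 h: siC cells received a control siRNA, siIGF2BP1 cells a pool of siRNAs against the mRNA-binding protein IGF2BP1, and siSRF cells a pool against the transcription factor SRF, with 3 libraries of total RNA depleted of ribosomal RNA for each. All groups are thus transient knockdowns in 1 cell line, and the labels do not say whether the libraries of a group came from separate cultures, so p-values measure the spread between these libraries. Between 6421764 and 9416175 reads fell on genes in each library. IGF2BP1 was at 12.8, 13.5 and 12.1 FPKM in the siC libraries, 4.18, 4.14 and 4.02 in siIGF2BP1 and 13.7, 14.6 and 14.4 in siSRF. SRF was at 13.6, 14.1 and 16.0 FPKM in siC, 5.80, 5.42 and 6.80 in siIGF2BP1 and 1.63, 1.36 and 1.42 in siSRF, so SRF was also lower in the siIGF2BP1 libraries. Of 13 marker genes read as a check of the cell type, VIM, CDH2, FN1, KRT8 and KRT18 were present, whereas the epithelial genes EPCAM and CDH1 were at or near 0, the Müllerian genes PAX8 (at most 0.241 FPKM as a group mean) and WT1 (at most 0.151) were low and MUC16 was listed at 0. The endothelial gene PECAM1 reached 0.325 FPKM, and the leukocyte gene PTPRC and the hepatocyte gene ALB were listed at 0.

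C/D box RNAs pair with ribosomal RNA and, in a particle with the methyltransferase fibrillarin, direct methylation of the ribose. H/ACA box RNAs direct the conversion of uridine to pseudouridine with dyskerin, and a few members of each class, U3 and the SNORA73 RNAs among them, are needed for cutting the ribosomal precursor instead. Small Cajal body RNAs guide the same modifications on the spliceosomal RNAs. Most of these RNAs in human cells are released from the introns of host genes, many of which encode ribosomal proteins or are long non-coding SNHG transcripts, while U3 and SNORD13 have promoters of their own.

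Several RNAs that the comparisons turn on are shown as sequences, read from the GENCODE transcripts of GRCh38 in the 5′ to 3′ direction. Capitals mark the letters TGATGA within the first 20 bases and CTGA within the last 20 bases of SNORD12B, SNORD12C and SCARNA6.1. In the H/ACA box RNAs they mark ACA within the last 8 bases and the match to ANANNA nearest the middle. SNORD3A, shown only in part, and U3.37 were left without capitals, although CTGA stands within the last 20 bases shown of each. Searched on the RNA strand, the C and D letters were found together in 17 of the 29 C/D box RNAs (58.6%) and in 56.8% of the other SNORD rows. ACA stood within the last 8 bases of 19 of the 22 H/ACA box RNAs (86.4%) and in 73.0% of the other SNORA rows. It was found there in 20.7% of the C/D box RNAs and in 5.59% of the other SNORD rows. ANANNA stood in the middle stretch (from 35% to 65% of the length) of 20 of the 22 (90.9%) and in 81.6% of the other SNORA rows. It was also found in 17.2% of the C/D box RNAs and in 56.5% of the other SNORD rows, so it does not mark H/ACA box RNAs alone.
SNORD12B (chr20:49280319-49280409) and SNORD12C (chr20:49278940-49279028) lie on the plus strand within ZFAS1, SNORD12C in an intron and SNORD12B over an annotated exon, and were lower in siIGF2BP1. They were 76.7% identical over 86 aligned bases.
SNORD12B: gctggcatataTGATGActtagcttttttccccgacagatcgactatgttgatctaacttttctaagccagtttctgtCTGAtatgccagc
SNORD12C: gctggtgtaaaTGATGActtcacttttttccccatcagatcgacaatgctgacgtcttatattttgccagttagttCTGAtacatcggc
SNORA5A (chr7:45104349-45104482) and SNORA5C (chr7:45104906-45105042) come from introns of TBRG4 on the minus strand and were 69.6% identical over 135 aligned bases. They were the RNAs with the largest rise in siSRF. SNORA5A reached 10 FPKM as a mean in siSRF alone, so its rise is not independent of the choice of members.
SNORA5A: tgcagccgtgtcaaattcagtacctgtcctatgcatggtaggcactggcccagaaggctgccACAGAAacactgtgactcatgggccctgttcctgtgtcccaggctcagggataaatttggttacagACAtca
SNORA5C: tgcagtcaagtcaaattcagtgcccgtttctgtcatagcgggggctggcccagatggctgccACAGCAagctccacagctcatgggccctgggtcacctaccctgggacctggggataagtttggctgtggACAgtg
SNORA73B, within SNHG3 on the plus strand at chr1:28508559-28508762, was the most abundant H/ACA box RNA.
SNORA73B: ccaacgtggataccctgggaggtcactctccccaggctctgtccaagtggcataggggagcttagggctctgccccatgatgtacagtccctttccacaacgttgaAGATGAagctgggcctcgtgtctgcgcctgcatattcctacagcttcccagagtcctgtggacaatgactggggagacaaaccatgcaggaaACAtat
SCARNA6.1, from an intron of ATG16L1 on the plus strand at chr2:233288676-233288940, carries the C and D letters.
SCARNA6.1: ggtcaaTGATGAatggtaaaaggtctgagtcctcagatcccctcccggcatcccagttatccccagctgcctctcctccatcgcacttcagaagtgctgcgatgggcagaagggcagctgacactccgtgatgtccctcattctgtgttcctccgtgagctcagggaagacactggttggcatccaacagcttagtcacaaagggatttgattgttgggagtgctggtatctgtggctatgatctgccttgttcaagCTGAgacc
The first 218 bases of SNORD3A, on the plus strand at chr17:19188016-19188233, are the stretch that aligned with all of SNORD3D, the shortest of the SNORD3 rows compared. U3.37, which lies within an intron of TEX14 on the minus strand at chr17:58631641-58631836, was 74.3% identical to SNORD3A over 179 aligned bases.
SNORD3A: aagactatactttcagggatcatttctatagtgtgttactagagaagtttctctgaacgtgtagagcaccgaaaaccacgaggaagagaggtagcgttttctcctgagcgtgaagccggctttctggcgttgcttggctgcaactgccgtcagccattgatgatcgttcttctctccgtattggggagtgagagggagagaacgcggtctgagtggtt
U3.37: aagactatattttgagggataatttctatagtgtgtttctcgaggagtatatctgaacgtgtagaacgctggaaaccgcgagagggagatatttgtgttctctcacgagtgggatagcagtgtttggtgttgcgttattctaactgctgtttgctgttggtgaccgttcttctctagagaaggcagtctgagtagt

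U3, the C/D box RNA of the first cuts in the ribosomal precursor, made up most of the signal. Its 4 rows SNORD3B.2, SNORD3A, SNORD3C and SNORD3B.1 held a mean of 10392, 9404, 3816 and 1368 reads per library and together 79.9% of the reads of the 59 RNAs. These rows were 97.8% to 99.8% identical to each other over their aligned bases, so reads cannot be assigned to 1 of them with certainty. They are treated below as values of 1 RNA family. Their lengths of 581 to 791 bases exceed the 218 bases of SNORD3D, which was listed at 0, and a longer annotated length lowers FPKM for the same number of reads. The next C/D box RNAs were SNORD17 (335 reads), SNORD46.2 (126), SNORD15B (51.3), SNORD12C (44.1) and SNORD12B (43.7). Among H/ACA box RNAs, SNORA73B stood far above the rest with 1154 reads, followed by SNORA12 (177), SNORA74.5 (133), SNORA23 (71.0) and SNORA5C (68.6). The 5 Cajal body RNAs had between 296 (SCARNA6.1) and 1269 reads (SCARNA7).

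**Figure D1:**
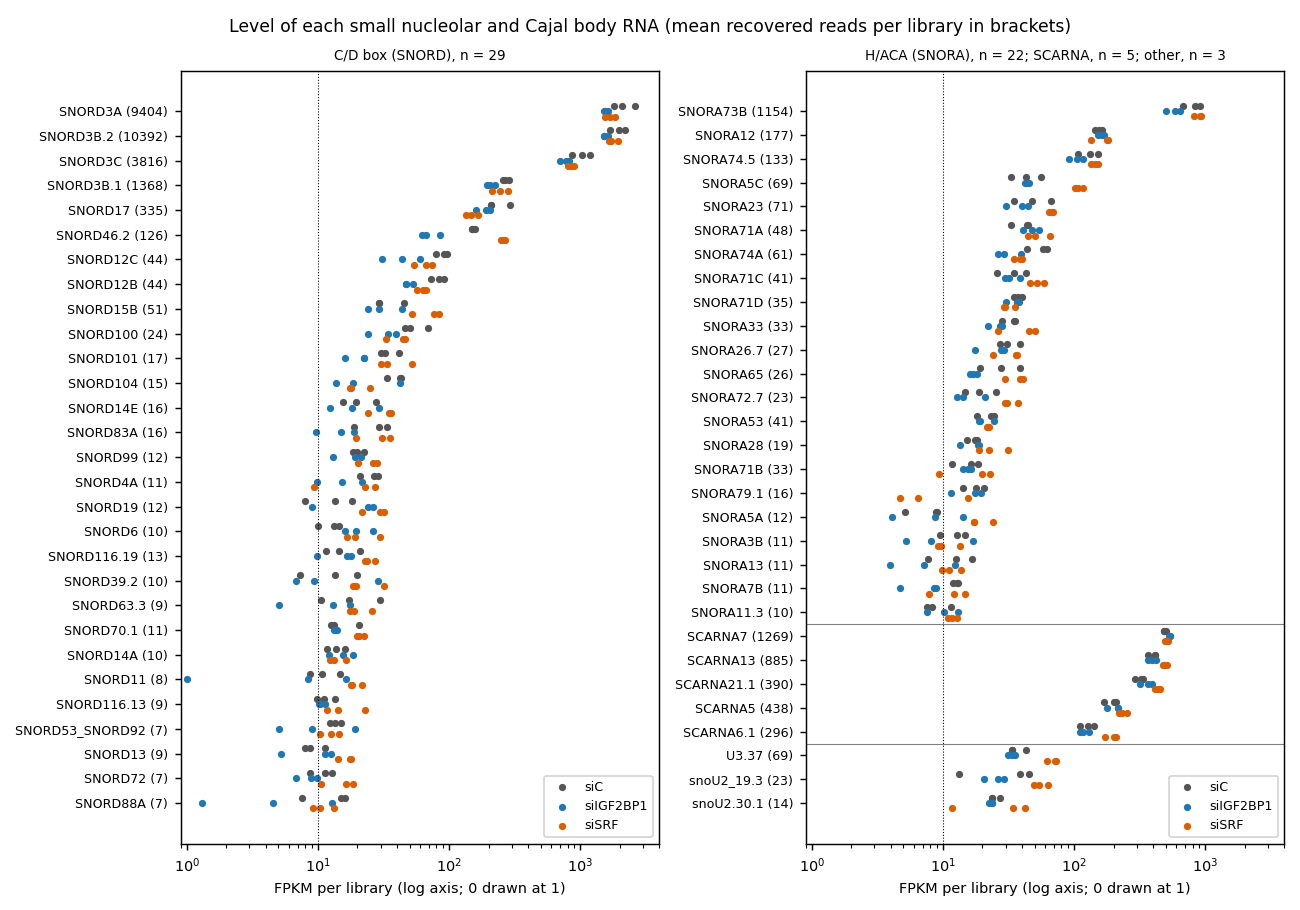
FPKM on a log axis for each RNA in each of the 9 libraries (1 point per library, coloured by group, the only 0 drawn at 1), with the mean number of recovered reads per library in brackets and the 10 FPKM minimum as a dotted line. The 4 U3 rows, SNORA73B and the 5 Cajal body RNAs lie above 100 FPKM in every library, whereas 27 of the 59 RNAs rest on fewer than 20 reads.

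Most of the others were read thinly. The median over the 59 RNAs was 24.4 reads per library, and 27 had fewer than 20 (19 of 29 C/D box RNAs, 7 of 22 H/ACA box RNAs and snoU2.30.1). Short length raises FPKM, so SNORD88A reached 10.0 FPKM from 6.78 reads. The members just inside the minimum among C/D box RNAs were SNORD88A, SNORD72 (11.6 FPKM) and SNORD13 (11.9), and just outside lay SNORD94 (9.94), SNORD53 (9.84) and SNORD93 (9.65). For H/ACA box RNAs they were SNORA11.3 (10.4), SNORA7B (10.5) and SNORA13 (10.6) inside, and SNORA66 (9.12), SNORA14B (8.95) and SNORA42.2 (8.64) outside. The Cajal body RNAs showed a wide gap, from 147 FPKM (SCARNA6.1) to 7.40 (SCARNA22). The same held for the other symbols, from 25.8 FPKM (snoU2.30.1) to 6.66 (snoU109.5). All 59 were read in each of the 9 libraries except SNORD11, which had 0 reads in siIGF2BP1 replicate 1, where a count of 0 cannot be told from up to 3 reads.

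Each comparison below is a limma test on log2(FPKM + 0.1) over all genes whose mean reached 0.1 FPKM, with p-values adjusted over all of them by Benjamini and Hochberg and calls at an adjusted p of at most 0.01. All 59 RNAs passed that filter. A fold change on this scale, given with its standard error (SE), understates the change of low genes where all libraries have reads. A library at 0 can instead enlarge it. SNORD11, at 0 in siIGF2BP1 replicate 1, had a log2 fold change of -2.23 in siIGF2BP1 against siC, beside means of 8.25 and 11.5 FPKM.

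Upon IGF2BP1 depletion, C/D and H/ACA box RNAs were lower or not called, and the Cajal body RNAs were not called. Of the 59 RNAs, 9 were lower than in siC and 0 were higher, against a background of 7.34% lower and 7.31% higher among the 22292 genes tested. The lower RNAs were the 4 U3 rows, SNORD46.2, SNORD12B, SNORD12C, SNORA73B and SNORA74A. The 9 rows are 15.3% of the 59, but the 4 near-identical U3 rows count as 1 observation, which brings the share nearer to the background. The medians and the count of negative values below also hold all 4 U3 rows. At an unadjusted p under 0.05, 20 of the 59 differed, and limma-voom on the recovered reads also called 9 lower and 0 higher. No share over all genes was taken at either setting, so these counts are not read as an excess. The median log2 fold change of the 59 was -0.21 (C/D -0.38, H/ACA -0.22, Cajal body 0.079), against 0.017 over all genes tested. Of the 59, 47 were negative, against 48.6% of all genes tested. SNORD11, SNORD72, SNORD88A, SNORA7B and SNORA13 reached 10 FPKM as a mean in siC but not in siIGF2BP1. The median and this count are thus not independent of the choice of members. Other short genes were below siC too: the 127 other rows of at most 300 bases and at least 10 FPKM had a median of -0.15, and their part in the result was not tested.

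SNORD46.2, a guide for methylation of 28S ribosomal RNA, was at 149, 150.0 and 157 FPKM in the siC libraries, 66.5, 62.0 and 85.1 in siIGF2BP1 and 268, 258 and 250.4 in siSRF. The 3 groups did not overlap, siIGF2BP1 being lowest and siSRF highest. These values rest on 102, 106 and 118 reads in siC, 53, 47 and 75 in siIGF2BP1 and 199, 245 and 192 in siSRF. The log2 fold change upon IGF2BP1 depletion was -1.10 (SE 0.14 and limma adjusted p = 5.37e-05), from a mean of 152 FPKM ± 4.45 to 71.2 FPKM ± 12.3 (SD, n = 3). It was called under all 9 other settings that kept all libraries.

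SNORD12C was at 91.9, 79.4 and 96.3 FPKM in siC, 43.96, 30.8 and 59.7 in siIGF2BP1 and 53.5, 74.0 and 67.1 in siSRF, from 20 to 62 reads. SNORD12B was at 83.2, 72.8 and 91.2 FPKM in siC, 53.0, 46.7 and 46.7 in siIGF2BP1 and 63.1, 66.3 and 56.6 in siSRF, from 31 to 60 reads. Both RNAs, guides for 28S ribosomal RNA from the same host, were highest in the siC libraries, which overlapped with neither knockdown. Upon IGF2BP1 depletion the log2 fold change was -1.04 (SE 0.22 and limma adjusted p = 0.00315) for SNORD12C and -0.75 (SE 0.17 and limma adjusted p = 0.00457) for SNORD12B. In siSRF they were at -0.47 (limma adjusted p = 0.0524) and -0.41 (limma adjusted p = 0.0747) and were not called. The ratio of SNORD12C to SNORD12B did not separate the groups (two-sided exact permutation p = 0.4 for siIGF2BP1 and 1 for siSRF, each against siC).

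SNORA73B, which takes part in cutting the ribosomal precursor, was at 669.7, 905 and 831 FPKM in siC, 499.9, 583 and 644 in siIGF2BP1 and 922, 824 and 907 in siSRF. All siIGF2BP1 libraries lay below all others. Its log2 fold change upon IGF2BP1 depletion was -0.47 (SE 0.11 and limma adjusted p = 0.00453), from 802 FPKM ± 120.2 to 576 FPKM ± 72.1 (SD, n = 3). SNORA74A, an H/ACA box RNA from SNHG4, was at 58.1, 62.4 and 43.99 FPKM in siC, 39.5, 29.1 and 26.2 in siIGF2BP1 and 34.7, 38.8 and 39.7 in siSRF. It was lowest in 2 siIGF2BP1 libraries, and its log2 fold change was -0.80 (SE 0.18 and limma adjusted p = 0.00541).

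The U3 row SNORD3A was at 2071, 2591 and 1811 FPKM in siC, 1545, 1519 and 1626 in siIGF2BP1 and 1536, 1696 and 1840.3 in siSRF. The siC libraries were spread widely, replicate 2 being highest, and the siIGF2BP1 libraries lay below them while the siSRF libraries overlapped with siC. The log2 fold change upon IGF2BP1 depletion was -0.45 (SE 0.094 and limma adjusted p = 0.00268) for SNORD3A, -0.42 (limma adjusted p = 0.00423) for SNORD3C, -0.38 (limma adjusted p = 0.00105) for SNORD3B.1 and -0.33 (limma adjusted p = 0.00645) for SNORD3B.2. As near-identical sequences these count as 1 observation, not 4. Their values in siSRF lay between -0.34 (SNORD3A, limma adjusted p = 0.0182) and -0.13 (SNORD3B.2, limma adjusted p = 0.260), none of them called.

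**Figure D2:**
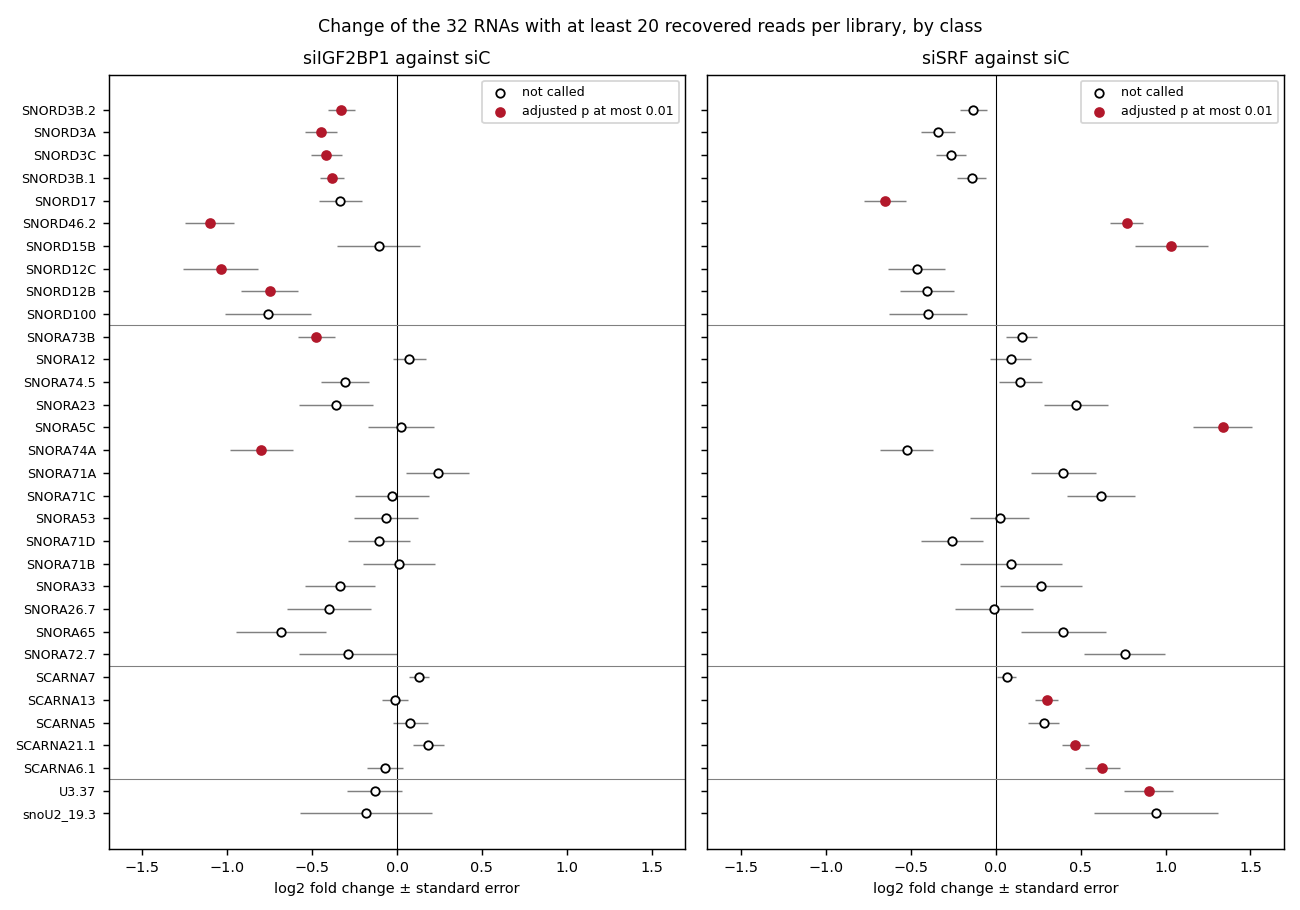
Log2 fold change with its standard error for the 32 RNAs with a mean of at least 20 recovered reads, siIGF2BP1 (left) and siSRF (right) against the same 3 siC libraries, filled where the limma adjusted p was at most 0.01. In siIGF2BP1 the 9 called RNAs lie left of 0, between -1.10 and -0.33, and in siSRF 7 of the 8 called here lie right of 0.

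These calls were sensitive to single libraries. With any 1 of the siC libraries, or siIGF2BP1 replicate 1 or 2, left out, 0 of the 59 RNAs were called, and without siIGF2BP1 replicate 3 only SNORD46.2 was. The limma adjusted p over these 6 fits was 0.00481 to 0.0153 for SNORD46.2, 0.0243 to 0.0950 for SNORD12C, 0.0188 to 0.0474 for SNORD12B, 0.0301 to 0.154 for SNORA73B, 0.0302 to 0.128 for SNORA74A and 0.0204 to 0.160 for SNORD3A, and all kept their direction. Without the filter on low values 1 of the 9 was called, and with a variance trend along FPKM in place of reads 2 were.

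Several abundant RNAs were not called and changed little. SNORA12 was at 154, 162 and 144 FPKM in siC and 168, 152 and 164 in siIGF2BP1, with a log2 fold change of 0.074 (95% interval -0.14 to 0.29). SCARNA7, a guide for U1 spliceosomal RNA, was at 0.13 (95% interval 0.0057 to 0.26, limma adjusted p = 0.135), SCARNA13 at -0.012 (-0.18 to 0.15) and SCARNA6.1 at -0.073 (-0.30 to 0.15). For SCARNA7 the siIGF2BP1 libraries (534, 526 and 542 FPKM) all lay slightly above the siC libraries (483, 480 and 499). The RNAs under 20 reads were measured with less precision: their median standard error was 0.36, against 0.18 for the 32 RNAs with more reads, and none of the 27 was called.

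Upon SRF depletion, the picture was mixed among C/D and H/ACA box RNAs, and 3 of the 5 Cajal body RNAs rose. Of the 59 RNAs, 8 were higher and 1 was lower than in siC, against 11.5% higher and 9.39% lower among the 21857 genes tested. The higher RNAs were SNORA5A, SNORA5C, SNORD15B, SNORD46.2, SCARNA6.1, SCARNA21.1, SCARNA13 and U3.37, and the lower one was SNORD17. SNORA5A and SNORD13 reached 10 FPKM as a mean in siSRF alone, so their higher values there are not independent of the choice of members. The median log2 fold change was 0.22 (C/D 0.12, H/ACA 0.15, Cajal body 0.30), against 0.0074 over all genes tested. Of the 59, 40 were positive and 19 negative, where 49.4% of all genes tested were negative. For the 127 other short rows the median was 0.14, and their part in the result was not tested.

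SNORA5C, an H/ACA box RNA from TBRG4, was at 33.2, 43.0 and 55.5 FPKM in siC, 43.8, 45.0 and 42.2 in siIGF2BP1 and 102, 107 and 117 in siSRF, from 30, 40 and 55 reads in siC and 100, 134 and 118 in siSRF. The siSRF libraries stood apart from all others. The log2 fold change was 1.34 (SE 0.17 and limma adjusted p = 4.25e-05), from 43.9 FPKM ± 11.2 to 109 FPKM ± 7.38 (SD, n = 3). SNORA5A, from another intron of TBRG4, was counted with 8, 8 and 5 reads in siC, 9, 4 and 16 in siIGF2BP1 and 23, 21 and 17 in siSRF, and its log2 fold change in siSRF was 1.36 (SE 0.32 and limma adjusted p = 0.00488). SNORA5A is the only called RNA under 20 reads. Its group means were 7.66 FPKM in siC, 8.98 in siIGF2BP1 and 19.5 in siSRF. It thus passed the 10 FPKM minimum only through the group in which it was called higher, and its call carries that choice.

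SNORD15B, a guide for 28S ribosomal RNA, was at 29.05, 45.4 and 29.4 FPKM in siC, 43.8, 29.1 and 24.3 in siIGF2BP1 and 51.8, 84.2 and 76.2 in siSRF. The siSRF libraries lay above the rest, replicate 1 only slightly. Its log2 fold change in siSRF was 1.03 (SE 0.22 and limma adjusted p = 0.00198). SNORD46.2 rose by 0.77 (SE 0.10 and limma adjusted p = 2.92e-05) on the log2 scale, opposite to its fall in siIGF2BP1. U3.37 was at 43.3, 33.8 and 33.9 FPKM in siC, 31.3, 35.7 and 33.7 in siIGF2BP1 and 71.5, 62.1 and 72.7 in siSRF, a log2 fold change of 0.90 (SE 0.14 and limma adjusted p = 2.65e-04) in siSRF. This row did not follow the 4 U3 rows, whose values in siSRF were negative. SNORD17, the most abundant C/D box RNA after U3, was at 208, 292 and 208 FPKM in siC, 206, 160.2 and 190.3 in siIGF2BP1 and 134, 146 and 166 in siSRF, and fell by a log2 fold change of -0.65 (SE 0.12 and limma adjusted p = 0.00101) in siSRF. Its siC replicate 2 was the highest library.

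Of the Cajal body RNAs, SCARNA6.1, a guide for U5 spliceosomal RNA, was at 111, 141 and 127 FPKM in siC, 112, 117 and 131 in siIGF2BP1 and 202, 209.9 and 173 in siSRF, a log2 fold change of 0.63 (SE 0.10 and limma adjusted p = 3.14e-04) in siSRF. SCARNA21.1 was at 289, 332 and 322 FPKM in siC, 366, 319.5 and 389 in siIGF2BP1 and 415, 449 and 439 in siSRF, a log2 fold change of 0.47 (SE 0.080 and limma adjusted p = 4.34e-04). SCARNA13 was at 362, 412 and 415 FPKM in siC, 389, 367 and 422 in siIGF2BP1 and 480.1, 507 and 474 in siSRF, a log2 fold change of 0.30 (SE 0.069 and limma adjusted p = 0.00388). In each of these the siSRF libraries lay above all others. SCARNA5 was at 0.28 (95% interval 0.085 to 0.48, limma adjusted p = 0.0315) and SCARNA7 at 0.063 (-0.058 to 0.18, limma adjusted p = 0.475), and neither was called.

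**Figure D3:**
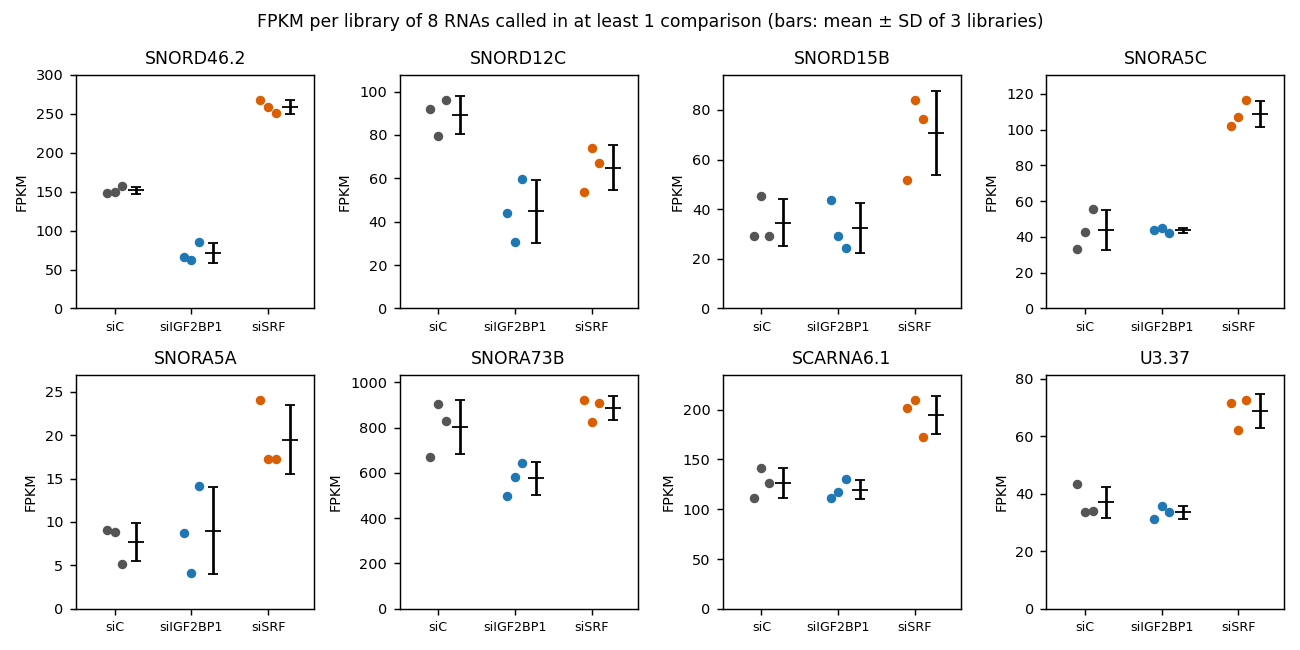
FPKM of 8 RNAs in each library (points) with the mean and SD of 3 libraries beside them, for siC, siIGF2BP1 and siSRF. SNORD46.2 separates all 3 groups, SNORD12C and SNORA73B are low in siIGF2BP1, and SNORD15B, SNORA5C, SNORA5A, SCARNA6.1 and U3.37 are high in siSRF. SNORA5A reached 10 FPKM as a mean in siSRF alone.

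Leaving out 1 library left 4 higher RNAs without siC replicate 1, 2 without siC replicate 2 or 3, and 1 without any of the siSRF libraries, while SNORD17 was called in none of these fits. SNORD46.2 was called in all 6, with a limma adjusted p of 0.00224 to 0.00569. It was 0.00299 to 0.0220 for SNORA5C, 0.00515 to 0.0220 for U3.37, 0.00798 to 0.0234 for SCARNA21.1, 0.0103 to 0.0408 for SCARNA6.1, 0.0246 to 0.0690 for SCARNA13, 0.0179 to 0.0994 for SNORD15B, 0.0324 to 0.0672 for SNORA5A and 0.0238 to 0.0833 for SNORD17. Without the filter, and with the trend along FPKM, 5 of the 8 higher RNAs were called.

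Whether the knockdowns differ was tested directly, without siC. Of the 59 RNAs, 14 were lower in siIGF2BP1 than in siSRF and 0 were higher, against 15.4% lower and 13.3% higher among 22311 genes tested. At an unadjusted p under 0.05, 30 differed, and limma-voom called 17 lower and 1 higher, again without a share over all genes to set them against. By class, 3 of 29 C/D box RNAs, 7 of 22 H/ACA box RNAs and 2 of 5 Cajal body RNAs were lower. The median log2 difference was -0.50, against 0.017 over all genes. It was -0.32 over the 127 other short rows, whose part in the result was not tested. Of the 59, 53 were negative, against 48.6% of all genes. SNORD11, SNORD13, SNORD72, SNORD88A, SNORA5A, SNORA7B and SNORA13 reached 10 FPKM as a mean in siSRF but not in siIGF2BP1. The median and the count of negative values are thus not independent of the choice of members.

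SNORD46.2 showed the largest called difference, -1.88 (SE 0.13 and limma adjusted p = 2.75e-08). SNORA5C followed with -1.31 (SE 0.13 and limma adjusted p = 9.99e-07), then SNORD15B with -1.14 (SE 0.22 and limma adjusted p = 8.48e-04), snoU2_19.3 with -1.13 (SE 0.23 and limma adjusted p = 9.72e-04), SNORA65 with -1.08 (SE 0.21 and limma adjusted p = 8.86e-04), SNORA72.7 with -1.05 (SE 0.24 and limma adjusted p = 0.00257) and U3.37 with -1.03 (SE 0.13 and limma adjusted p = 1.66e-05). SNORA23 (-0.83), SCARNA6.1 (-0.70), SNORA71C (-0.65), SNORA73B (-0.63), SNORA74.5 (-0.45), SCARNA13 (-0.31) and SNORD3B.2 (-0.19) were the other calls, with limma adjusted p-values from 1.64e-05 (SNORA73B) to 0.00828 (SNORA71C). Of the 4 U3 rows only SNORD3B.2 was called, and it stayed called in 2 of 9 other settings. The sum of the 4 U3 rows overlapped between the knockdowns (log2 difference -0.093, exact permutation p = 0.4), so U3 as a family is not read as different. SNORA65, an H/ACA box RNA from RPL12, was counted with 33, 17 and 26 reads in siC, 16, 16 and 20 in siIGF2BP1 and 38, 35 and 37 in siSRF. SNORA72.7, from RPL30, was counted with 22, 17 and 14 reads in siC, 13, 20 and 16 in siIGF2BP1 and 28, 45 and 30 in siSRF. For both, the siC libraries lay between the knockdown libraries or among them, and neither knockdown was called against siC. SNORA23, from IPO7, was at 34.95, 67.1 and 47.9 FPKM in siC, 30.1, 39.9 and 44.1 in siIGF2BP1 and 68.5, 67.5 and 64.8 in siSRF, with siC spread over nearly the whole range.

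In fits without 1 library, between 4 (without siSRF replicate 1 or 3) and 7 (without siIGF2BP1 replicate 3) RNAs were called lower, and 6 without any other single library. SNORD46.2, SNORA5C, U3.37 and SCARNA6.1 were called in all 6 fits. The limma adjusted p was 0.0116 to 0.0691 for SNORD15B, 0.00512 to 0.0187 for SNORA65, 0.00651 to 0.0496 for SNORA72.7, 0.00910 to 0.0213 for snoU2_19.3, 0.00573 to 0.0271 for SNORA23, 0.00427 to 0.0165 for SNORA73B, 0.0174 to 0.0647 for SNORA71C, 0.0147 to 0.0671 for SNORA74.5, 0.00638 to 0.0327 for SCARNA13 and 0.0376 to 0.144 for SNORD3B.2. Without the filter 9 of the 14 were called.

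Summed over a class, the reads were set by a few RNAs. The 4 U3 rows took 3923, 4489 and 3280.2 reads per 1000000 counted on genes (RPM) in siC, 2869.7, 2966 and 3079 in siIGF2BP1 and 2920.3, 3121 and 3465 in siSRF. The siIGF2BP1 libraries lay below all siC libraries, of which replicate 2 was the highest, and siSRF overlapped with siC. The other 25 C/D box RNAs summed to 125 ± 10.2 in siC, 91.1 ± 4.53 in siIGF2BP1 and 117 ± 3.95 in siSRF (SD, n = 3). The 22 H/ACA box RNAs summed to 284 ± 32.5, 225 ± 15.6 and 309.8 ± 8.28 in the same order, and the 5 Cajal body RNAs to 404 ± 16.3, 429.7 ± 14.2 and 464 ± 13.3. In siIGF2BP1 the sums of both box classes lay below and that of the Cajal body RNAs above every siC library (exact permutation test, two-sided, p = 0.1 for each, the smallest that 3 against 3 allow). In siSRF this held for the Cajal body RNAs, again above siC (exact permutation p = 0.1), but not for the sum of all C/D (exact permutation p = 0.2) or H/ACA box RNAs (exact permutation p = 0.3). The C/D sum in siSRF differed from siC by -0.29 on the log2 scale, by -0.18 without siC replicate 2 and by -0.10 without the 4 U3 rows, and the H/ACA sum by 0.12, or 0.042 without siC replicate 1. On the log2 scale the H/ACA sum in siIGF2BP1 differed from siC by -0.34, and by -0.17 without SNORA73B. The Cajal body sum differed from siC by 0.087 in siIGF2BP1 (0.054 without siC replicate 1 and 0.049 without SCARNA7) and by 0.20 in siSRF (0.32 without SCARNA7). In bulk RNA, fewer molecules per cell and a smaller share among more total RNA cannot be told apart.

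**Figure D4:**
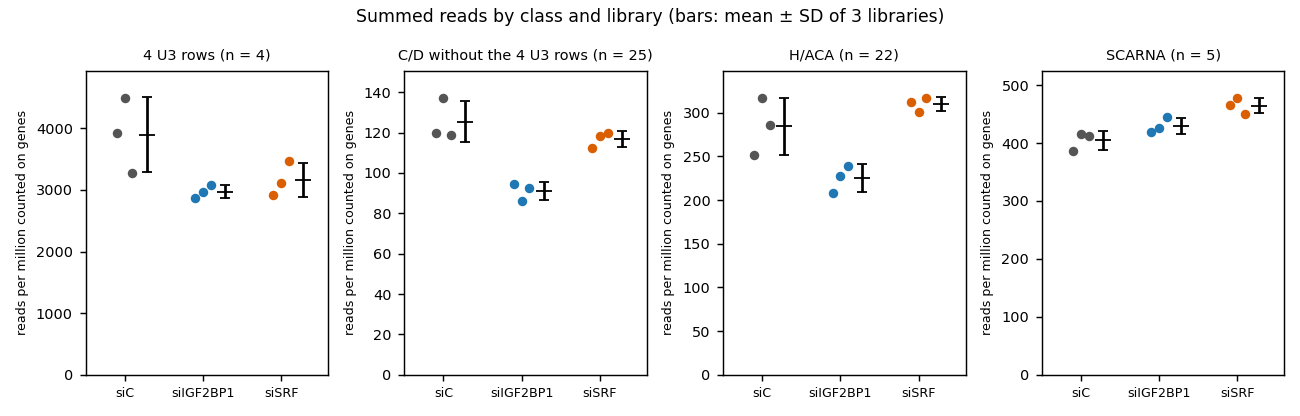
Summed recovered reads per 1000000 reads counted on genes (RPM), by class and library (points), with the mean and SD of 3 libraries and each axis starting at 0. The siIGF2BP1 libraries lie below all siC libraries in the U3 rows, the other C/D box RNAs and the H/ACA box RNAs, and the siSRF libraries lie above all others in the Cajal body RNAs.

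The host genes were read in the same libraries. All 59 RNAs were found with equal length in GENCODE on GRCh38. Of these, 53 lie within 41 host genes on the same strand, 34 of the RNAs in protein-coding hosts (12 in ribosomal protein genes) and 18 in long non-coding hosts, and 11 overlap an exon of another gene. The U3 rows, SNORD13 and SNORA11.3 have no host. Where an RNA overlaps an exon, reads of the host and of the small RNA cannot be fully told apart. Across the 51 RNAs with a tested host, Pearson's r between the log2 fold change of the RNA and that of its host was -0.10 in siIGF2BP1, and across 52 it was 0.55 in siSRF, as a description: RNAs of 1 host share its value. For RNAs with at least 20 reads, r was -0.23 across 27 in siIGF2BP1 and 0.43 across 28 in siSRF. U3.37, whose host TEX14 had few reads, enters only the siSRF values.

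Some RNAs did not move with the gene around them. SNORD12B and SNORD12C differed from ZFAS1, which was at -0.0048 in siIGF2BP1 (limma adjusted p = 0.981): the log2 ratio to the host differed by -1.03 for SNORD12C and -0.75 for SNORD12B (two-sided exact permutation p = 0.1 for each, the smallest possible). RPS3 was at -0.16 in siSRF (limma adjusted p = 0.0189), and the ratio of SNORD15B to it was higher by 1.20 (exact permutation p = 0.1). The ratio of SCARNA21.1 to CHD3 was higher by 0.66 in siSRF (exact permutation p = 0.1), with CHD3 at -0.19 (limma adjusted p = 0.0296). SNX5, the host of SNORD17, was at -0.10 (limma adjusted p = 0.335), and the ratio differed by -0.55 (exact permutation p = 0.1).

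SNORA73B had values near those of its host. SNHG3 fell by a log2 fold change of -0.51 (SE 0.067 and limma adjusted p = 5.24e-05) in siIGF2BP1 beside -0.47 for SNORA73B, and the ratio of SNORA73B to SNHG3 differed by 0.039 (exact permutation p = 1). ATG16L1 rose by 0.33 (SE 0.082 and limma adjusted p = 0.00709) in siSRF beside 0.63 for SCARNA6.1 and 0.28 for SCARNA5. The ratio of SCARNA5 to SCARNA6.1, which share this host, was lower by -0.35 in siSRF (exact permutation p = 0.1, groups not overlapping). TBRG4 fell in siIGF2BP1 (-0.46 (SE 0.080 and limma adjusted p = 6.40e-04)) and rose in siSRF (0.42 (SE 0.074 and limma adjusted p = 5.63e-04)). Its RNA SNORA5C departed from it: it was at 0.025 in siIGF2BP1, and the log2 ratio of SNORA5C to TBRG4 was higher than in siC by 0.49 in siIGF2BP1 and by 0.92 in siSRF (exact permutation p = 0.1 for each, groups not overlapping), and its ratio to SNORA5A showed no separation of the groups (exact permutation p = 1 and 1). TEX14, the gene around U3.37, was at 0.0550 FPKM in siC, 0.0241 in siIGF2BP1 and 0.169 in siSRF. These values rest on 1, 4 and 1 reads in siC, 1 read in each siIGF2BP1 library and 9, 7 and 5 in siSRF. TEX14 was too low to be tested in siIGF2BP1 and was not called in siSRF (limma adjusted p = 0.273).

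**Figure D5:**
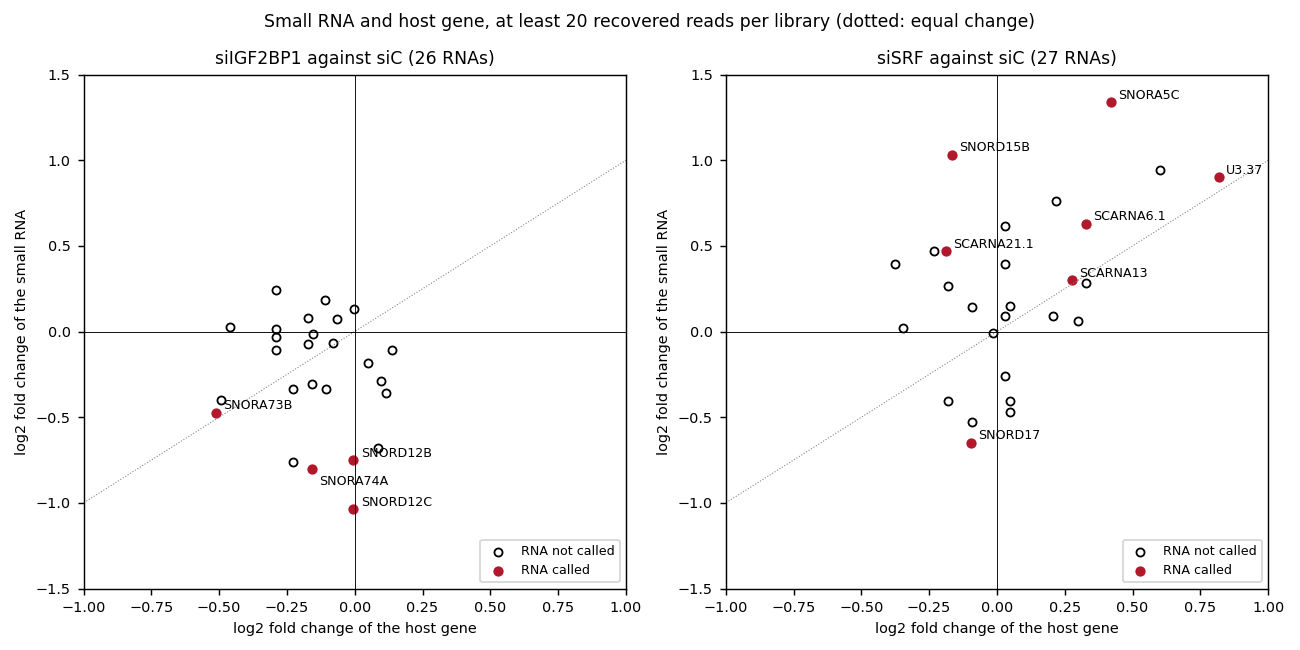
Log2 fold change of the RNAs with a host and at least 20 recovered reads, 1 left out, (vertical) against that of its host gene (horizontal), for siIGF2BP1 (26 RNAs) and siSRF (27 RNAs) against siC, with called RNAs filled and equal change dotted. The SNORD12 RNAs lie far below the line in siIGF2BP1 while SNORA73B lies close to it, and SNORD15B and SNORA5C lie above it in siSRF.

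SNHG17 holds 4 H/ACA box RNAs of 1 family, SNORA71A to SNORA71D, which were 83.7% to 91.0% identical to each other, so that their counts are uncertain where reads fit several. SNORA71C was at 26.0, 42.8 and 35.1 FPKM in siC, 38.93, 29.7 and 31.7 in siIGF2BP1 and 46.0, 52.4 and 58.7 in siSRF. SNORA71D was at 35.04, 37.3 and 40.2 FPKM in siC, 30.2, 36.8 and 37.9 in siIGF2BP1 and 35.6, 29.5 and 29.4 in siSRF. The ratio of SNORA71C to SNORA71D was higher in siSRF than in siC by 0.88 on the log2 scale (exact permutation p = 0.1), and SNHG17 itself was at 0.028 (limma adjusted p = 0.842). RPS12 holds SNORD100, SNORD101 and SNORA33. In siIGF2BP1 their log2 fold changes were -0.76 (limma adjusted p = 0.0430), -0.77 (limma adjusted p = 0.0675) and -0.34 (limma adjusted p = 0.296), beside -0.23 for RPS12 (limma adjusted p = 0.0113), and none passed. SNHG4 holds SNORA74A and SNORA74.5. The log2 ratio of SNORA74.5 to SNORA74A was higher than in siC by 0.50 in siIGF2BP1 (exact permutation p = 0.2) and by 0.67 in siSRF (exact permutation p = 0.1).

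Listed genes for the particles, assembly, maturation and decay of these RNAs were more often lower than higher in siIGF2BP1, and none was lower in siSRF. The 31 genes are those of particle proteins, assembly factors, Cajal body and cap factors, and maturation and decay factors. Of them, 10 were lower and 1 was higher in siIGF2BP1 (all genes tested: 7.34% lower and 7.31% higher). Their median log2 fold change was -0.17 against 0.017 over all genes. In siSRF 0 were lower and 18 were higher (all genes: 9.39% lower and 11.5% higher), with a median of 0.33 against 0.0074. In the direct comparison 21 were lower in siIGF2BP1 than in siSRF and 0 higher (all genes: 15.4% lower and 13.3% higher), with a median of -0.43 against 0.017.

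The mRNAs of all 8 core proteins rose in siSRF. For the C/D particle, FBL (fibrillarin) was at 0.38, NOP56 at 0.20, NOP58 at 0.55 and SNU13 at 0.37 on the log2 scale. For the H/ACA particle, DKC1 (dyskerin) was at 0.45, GAR1 at 0.86, NHP2 at 0.22 and NOP10 at 0.63. In siIGF2BP1, NOP56 fell by a log2 fold change of -0.54 (SE 0.064 and limma adjusted p = 2.36e-05), DKC1 of -0.35 (SE 0.070 and limma adjusted p = 0.00202) and NOP10 of -0.37 (SE 0.094 and limma adjusted p = 0.00969), and the other 5 were not called. RRP9, the gene of a protein particular to the U3 particle, was at 37.3, 34.0 and 33.6 FPKM in siC, 24.4, 22.3 and 24.2 in siIGF2BP1 and 49.5, 52.0 and 49.5 in siSRF. It fell in siIGF2BP1 (-0.56 (SE 0.084 and limma adjusted p = 1.76e-04)) and rose in siSRF (0.52 (SE 0.072 and limma adjusted p = 6.83e-05)), whereas the 4 U3 rows had negative log2 fold changes in both, called only in siIGF2BP1. Of 10 assembly genes, 4 fell in siIGF2BP1 (RUVBL1, RUVBL2, PIH1D1 and NOLC1) and 6 rose in siSRF, NUFIP1 most with 0.61. Of the 4 Cajal body and cap genes 0 were called in siIGF2BP1, and in siSRF PHAX, which binds capped precursors of spliceosomal RNAs and of U3, rose by 0.53 (SE 0.068 and limma adjusted p = 3.78e-05). Of 8 maturation and decay genes, EXOSC10 and TOE1 fell and XRN2 rose in siIGF2BP1, and PAPD5 and XRN2 rose in siSRF.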

How the data were processed

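Total RNA of 9 ES-2 libraries was sequenced after rRNA depletion. The authors clipped reads with cutadapt 1.14, aligned them with HISAT2 2.1.0 to hg38 (SAMtools 1.5), used featureCounts 1.5.3 with genes of Ensembl release 89, and scaled the counts by TMM (edgeR 3.18.1). Strand and multi-mapping settings of the counting are not given in the sources used here. The values the authors deposited are FPKM per library, with gene length. Their own log2 fold changes, p-values and FDR stand in the same tables and were not used. FPKM times length was a whole multiple of 1 step for 100% of values in each library (tolerance 0.01), which gives the recovered reads, so 6421764 to 9416175 reads per library set the precision.

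Libraries were grouped by their labels. Comparisons used limma 3.58.1 (R 4.3.3) on log2(FPKM + 0.1), genes of at least 0.1 mean FPKM, 6 libraries per fit, with the prior variance as a trend along recovered reads, and Benjamini-Hochberg adjustment over all genes. Calls have an adjusted p of at most 0.01. Sums and ratios were given two-sided exact permutation tests (SciPy 1.17.1), where ratios are of log2 values per library. The fits were tested on simulated data. Sequences, lengths and hosts came from GENCODE release 44, with identity from local alignment (Biopython 1.88). Alternatives were other pseudocounts, filters, trends, rescaling, limma-voom, 1 fit of all libraries, a replicate block, other minima and leaving out each library. Leaving the U3 rows out of the sums was chosen after seeing the data.

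Named were, per class, the 5 RNAs of highest FPKM and most reads, every called RNA (up to 10 per class and comparison), the 3 largest changes from 20 reads upward, 3 rows on each side of the 10 FPKM minimum, their hosts, RNAs of hosts with at least 3 members, 31 particle genes, 13 marker genes, 6 other short RNAs and both siRNA targets. SNORD11 and SNORD3D, outside this rule, were named after their values were seen. The members and lists were chosen with earlier results of these data known. The same siC libraries serve both knockdown comparisons. Some sequences and 1 host gene are not reported here.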

Additional observations from a re-analysis of the deposited data

How the results depend on the processing

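Counts of called RNAs moved more than their directions. No share over all genes was taken at the other settings and thresholds, so the counts there are not read as more or less than a background. Lower in siIGF2BP1 than in siC were 9, against 2 with the variance trend along FPKM, 3 with a pseudocount of 1 and 1 without a filter, and between 0 and 1 with each replicate left out. With the replicate number as a block 6 were lower. None was higher, except 1 when rows of at least 5 FPKM were counted. In siSRF 8 were higher, against 5 with the trend along FPKM and 5 without a filter, and 1 to 4 with each replicate left out. With the replicate block 8 were higher and 1 was lower. Lower in siSRF was 1, against 3 with limma-voom, 0 without a filter, 4 with a minimum of 1 FPKM, 6 at an adjusted p of at most 0.05, and 0 with any replicate left out. Lower in siIGF2BP1 than in siSRF were 14, against 9 without a filter and 4 to 7 with each replicate left out, and 11 with the replicate block. None was higher, except 1 with limma-voom, 1 with a minimum of 1 FPKM and 1 at an adjusted p of at most 0.05. The cause of these shifts was not tested. Same-numbered libraries did not deviate together (correlations over genes -0.044 to 0.019), and of the 6 libraries of each comparison 0, 2 and 0 correlated best with their own number (siIGF2BP1 against siC, siSRF against siC, and between the knockdowns), so the block pairs libraries by number only.

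The 32 calls on single RNAs kept their direction in all 288 refits with other settings and stayed called in 225, and in all 192 refits without 1 library, where 45 stayed called. Those refits have fewer samples. For the summed reads, the log2 difference of Cajal body RNAs without SCARNA7 moved from 0.20 to 0.32 in siSRF against siC and from -0.11 to -0.27 between the knockdowns. Between the knockdowns, the H/ACA sum moved from -0.46 to -0.35 without SNORA73B, and the C/D sum from -0.10 to -0.36 without the 4 U3 rows. Depth limits the 27 RNAs under 20 reads, whose median 95% interval reached 0.77 to each side in siIGF2BP1 and 0.70 in siSRF, against 0.38 and 0.34 for the other 32.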

Other observations

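The 244 snoRNA and scaRNA rows that were read but stayed under the 10 FPKM minimum summed to 58.3 ± 4.90 reads per 1000000 (RPM) in siC, 63.7 ± 9.04 in siIGF2BP1 and 64.98 ± 3.31 in siSRF (SD, n = 3), and did not separate the groups (two-sided exact permutation p = 0.5 for siIGF2BP1 and 0.2 for siSRF against siC). Of the other short RNAs, RN7SL2, the RNA of the signal recognition particle, took 4.52% to 5.38% of all counted reads in the 9 libraries and was at a log2 fold change of 0.04 in siIGF2BP1 (limma adjusted p = 0.75) and 0.10 in siSRF (limma adjusted p = 0.24). RN7SL1, RN7SK and RMRP were listed at 0 in all groups, RPPH1 reached 0.0573 FPKM in siSRF, and TERC, the telomerase RNA, which carries an H/ACA domain, was between 0.475 and 0.904 FPKM in the group means. Rows annotated as snRNA summed to between 153 and 230.0 RPM.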
